A study of Homo sapiens with 15 samples.

Results

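The control antibody 004 was compared with no antibody in SKOV3ip1 cells, a human line from epithelial ovarian cancer, and the expression profile that both extracts share was described. The members were the 3 arrays titled 5-MTF+004 and the 3 arrays titled 5-MTF, which are 6 of the 15 arrays in the study. The labels do not spell out 5-MTF. Cells of the folate extract were grown for 7 days in medium with physiological folic acid (2 to 10 nM) and received no antibody. Cells of the 004 extract were grown in the same medium for 7 days and were exposed to antibody 004, labelled a control antibody, for 24 hours. The other 9 arrays came from folate-free medium, from the 003 antibody and from MORAb003, and they entered the fits only to estimate the spread between arrays. Each condition was grown once and its RNA was extracted once, and 3 aliquots of the extract were hybridised to Affymetrix U133 Plus 2.0 arrays. The p-values therefore compare 2 extracts through technical repeats and say nothing about the spread between cultures.

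MORAb-003, the antibody under study, binds folate receptor alpha, the product of FOLR1, which carries folate into cells and is abundant on many epithelial ovarian cancers. A control antibody of the same study serves to separate effects of the target from those of adding an immunoglobulin. Epithelial ovarian cancers of Müllerian type commonly express the transcription factor PAX8, the adhesion protein EPCAM and simple-epithelium keratins. SKOV3 and its derivatives are known for ERBB2 amplification. The antigen of 004 is not named in the labels.

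The first 004 array stood apart from the other 5 and the 004 against folate differences and the list counts are given with and without it. Its correlation with those 5 arrays over all probe sets was 0.939 to 0.955, whereas the 3 folate arrays correlated with 004 replicates 2 and 3 at 0.995 to 0.997 and with each other at 0.995 to 0.996. Bright probe sets were lower on it: in the ninth and the tenth decile of brightness the median difference from the mean of replicates 2 and 3 was -0.78 and -0.72 on the log2 scale, against 0.13 in the fifth decile. Of 14369 genes tested, 2367 (16.5%) were more than 2-fold lower and 463 (3.22%) more than 2-fold higher on this array than on the mean of replicates 2 and 3, and 0 differed 2-fold between replicates 2 and 3. The lowest against its repeats was SENP6, a SUMO protease, at 6.91 against 9.18 and 9.39. The highest was the pseudogene CTSLP8, at 9.19 against 6.33 and 6.24. The gap between the 3′ and the 5′ control probe sets of actin is a measure of transcript integrity and labelling. It was 3.82 on this array and 3.16 to 3.39 on the other 5, and that of GAPDH was 2.36 against 1.85 to 2.02. The folate-free and 003 arrays had gaps of 3.91 to 4.22 for actin and 2.23 to 2.53 for GAPDH. Within each of those 2 extracts the arrays correlated at 0.993 to 0.997. On the MORAb003 arrays the gaps were 2.32 to 2.57 and 1.09 to 1.36. Whether these gaps have a part in the deviation of the first 004 array, or in the other results, was not tested.

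**Figure D1:**
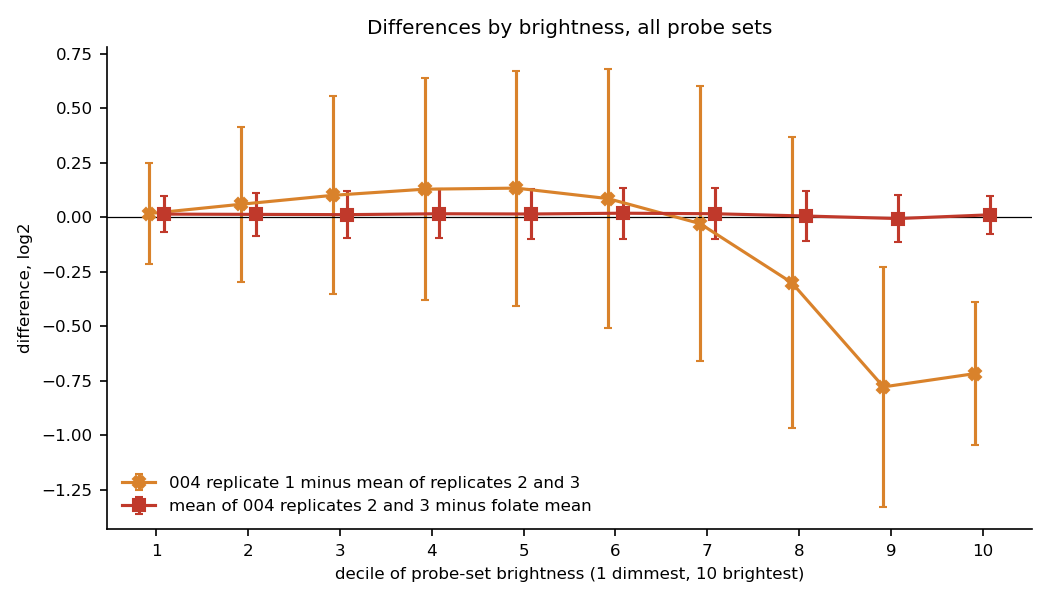
Median log2 difference (points) and its SD over probe sets (bars) in each decile of brightness, for 004 replicate 1 against the mean of replicates 2 and 3 and for the mean of replicates 2 and 3 against the folate mean. Replicate 1 falls to -0.78 in the ninth decile, while the medians of replicates 2 and 3 against folate stay between -0.01 and 0.02.

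The shared baseline held bright epithelial genes, Müllerian transcription factors and FOLR1, with few markers of other cell types above the reference defined below. Levels are log2 values on the authors' scale for the brightest probe set of each gene. Probe sets differ in their affinity, and a bulk extract cannot tell fewer expressing cells from less RNA per cell. Ranks of brightness below describe signal and not transcript number, and whether a gene was above background was read against 38 genes known from other tissues (liver, muscle, brain, pancreas, blood, retina and the like). Their means over the 6 arrays ran from 4.91 (CPA1, a pancreatic protease) to 8.66 (MBP, a myelin protein), with a median of 6.84 and a 95th percentile of 8.45. Of all 19775 genes measured, 6628 (33.5%) lay above that percentile. The lists below are described by their counts above it, with no test. Means are over the 6 arrays; without the first 004 array, and with the reference recomputed, the counts were the same except that keratins and junctions had 14, receptor tyrosine kinases 9 and antibody handling 4. Leaving that array out moved the mean of a listed gene by -0.19 (MUC2) to 0.35 (RB1).

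Of 37 measured genes of ovarian carcinoma and Müllerian lineage, 16 lay above the reference, and 13 of them did so on each of the 6 arrays. The surface glycoprotein CD24 measured 14.12, 14.06 and 14.12 on the folate arrays and 14.03, 14.19 and 14.19 on the 004 arrays in the order of replicates 1 to 3. EPCAM measured 13.74, 13.73 and 13.69 with folate and 13.60, 13.81 and 13.78 with 004. PAX8, the Müllerian lineage factor, measured 12.80, 12.85 and 12.82 with folate and 12.48, 12.82 and 12.87 with 004 by the brightest of its 8 probe sets. The averages of the 8 over the 6 arrays ran from 7.02 to 12.77. The groups overlapped for all 3 genes, and the first 004 array was the lowest of the 6 each time.

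The antibody target FOLR1 was among the brightest of the list. It measured 13.45, 13.63 and 13.50 on the folate arrays and 13.19, 13.57 and 13.76 on the 004 arrays, at the 99.4th percentile of all genes. A further FOLR1 probe set averaged 10.28. The 004 minus folate difference was -0.02 ± 0.13 (SE, n = 3 arrays each; limma adjusted p = 0.917) with all arrays and 0.14 ± 0.09 (limma adjusted p = 0.9997) without the first 004 array. The arrays of the groups overlapped.

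Of the other transcription factors of the lineage, EMX2 averaged 4.92 ± 0.10 and was not above the reference. MECOM, a zinc finger factor gained in many ovarian cancers, averaged 11.29 ± 0.29 (SD over 6 arrays), SOX17 averaged 10.23 ± 0.47 and WT1, a factor typical of serous tumours, averaged 9.42 ± 0.60, all above it. Without the first 004 array these means were 11.41, 10.42 and 9.67. These levels are those of the brightest probe sets. A further probe set averaged 9.82 for SOX17 and 7.00 for WT1, and the further probe sets of MECOM averaged 4.71 to 10.78. The brightest WT1 probe set was below the reference on the first 004 array only, at 8.22 against 9.53 to 9.76 on the other 5. FOXJ1, the regulator of motile cilia, averaged 8.75 ± 0.26 and was above it on 5 arrays. Secreted and membrane products above the reference included the matrix protein SPP1 (13.47 ± 0.11), the protease inhibitor SLPI (11.25 ± 0.17), the tight junction protein CLDN3 (10.74 ± 0.34) and the phosphate transporter SLC34A2 (10.72 ± 0.31).

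The other 21 measured genes of the list did not exceed the reference. They included established serum or tissue markers of ovarian cancer. MUC16, which encodes CA125, measured 6.69, 6.50 and 6.66 with folate and 6.69, 6.89 and 6.60 with 004. WFDC2, which encodes HE4, averaged 7.53 ± 0.06 and MSLN, mesothelin, averaged 5.77 ± 0.30. The oestrogen receptor ESR1 averaged 7.91 ± 0.27 and the progesterone receptor PGR 6.12 ± 0.28. These levels fell within the range of the other-lineage genes, which shows no level above background on this array type and does not show absence.

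**Figure D2:**
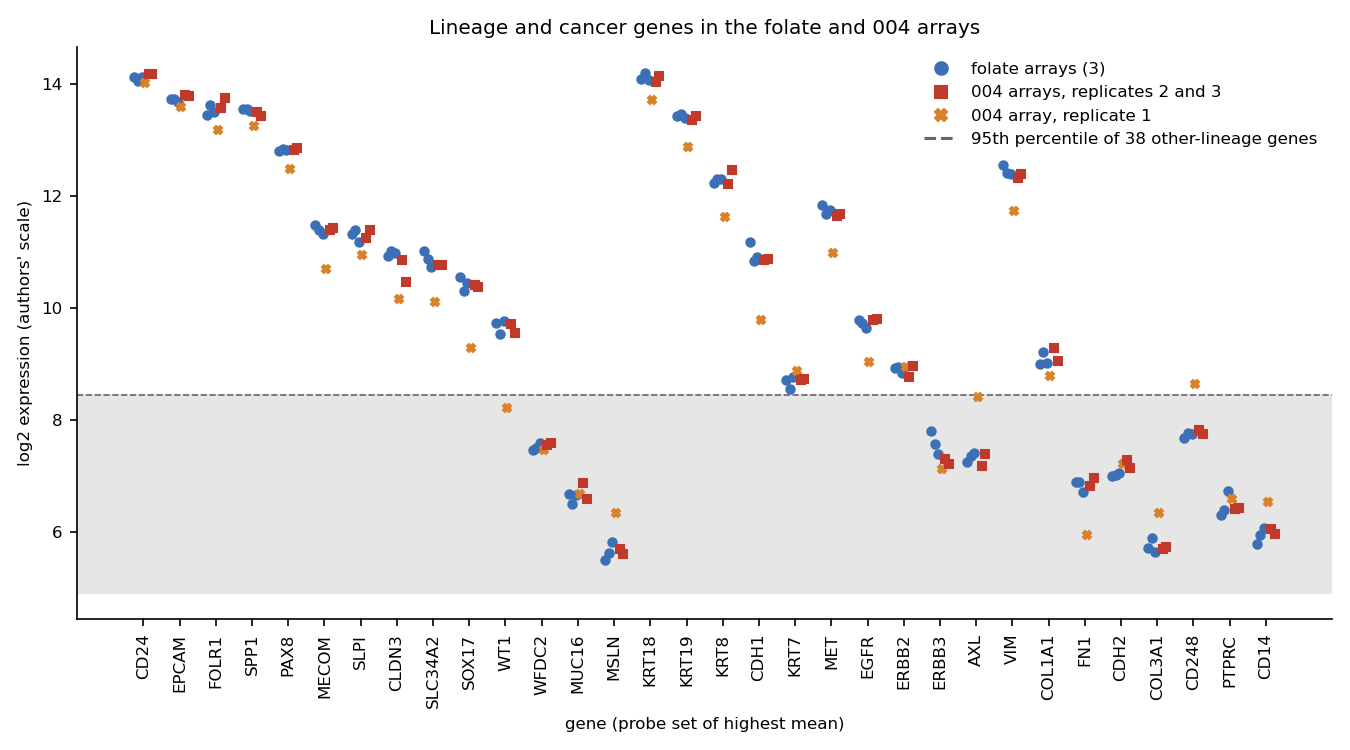
Log2 expression of 32 lineage and cancer genes on each of the 3 folate and 3 004 arrays. The grey band runs from the lowest other-lineage gene to their 95th percentile (dashed, 8.45); CD24, EPCAM, FOLR1, PAX8 and KRT18 lie far above it, and MUC16, WFDC2 and MSLN lie inside it.

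Epithelial structure genes were high. Of 24 keratins and junction genes measured, 13 exceeded the reference on all 6 arrays. KRT18, KRT19 and KRT8, the keratins of simple epithelia, averaged 14.05 ± 0.17, 13.33 ± 0.22 and 12.19 ± 0.29. E-cadherin (CDH1) measured 11.18, 10.84 and 10.92 with folate and 9.78, 10.86 and 10.89 with 004. The squamous keratins KRT5 (7.41 ± 0.18) and KRT14 (5.59 ± 0.33) and the intestinal keratin KRT20 (4.92 ± 0.17) were not above the reference. The splicing factor ESRP1 (5.76 ± 0.10) and the factor GRHL2 (5.66 ± 0.10), both widely used epithelial markers, were not above it either.

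Of 19 mesenchymal genes, 2 exceeded the reference. Vimentin (VIM), an intermediate filament protein, measured 12.55, 12.41 and 12.39 with folate and 11.74, 12.32 and 12.40 with 004. COL1A1, a fibrillar collagen chain, averaged 9.06 ± 0.18. The partner chain COL1A2 (7.22 ± 0.27), fibronectin FN1 (6.71 ± 0.38) and the factors ZEB1 (7.00 ± 0.48) and SNAI2 (4.99 ± 0.11) were not above it. N-cadherin CDH2 (7.13 ± 0.12), counted above with the keratins and junction genes, was not above it either. CD248, endosialin of pericytes and fibroblasts, measured 7.68, 7.77 and 7.76 with folate and 8.64, 7.82 and 7.75 with 004.

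Markers of other cells above the reference were few. None of 13 genes of clear cell, mucinous or intestinal tumours exceeded the reference in its mean, and the nearest was GATA6 at 7.89 ± 0.76, or 8.19 without the first 004 array. Of 8 mesothelial genes only LRRN4 did (9.21 ± 0.21), and of 14 endothelial and leukocyte genes only PECAM1 did (8.72 ± 0.22). The pan-leukocyte gene PTPRC averaged 6.48 ± 0.16 and the endothelial receptor KDR 5.24 ± 0.01. The receptors through which leukocytes bind antibodies were also within the background range: FCGR1A averaged 5.06 ± 0.12, FCGR2A 5.47 ± 0.29 and FCGR2B 5.64 ± 0.16. Of 12 genes of antibody handling 3 exceeded it, the complement regulators CD46 (10.74 ± 0.46) and CD59 (10.33 ± 0.29) and the cytosolic antibody receptor TRIM21 (8.60 ± 0.30).

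The labelled cell line was checked against ERBB2. Its brightest probe set measured 8.93, 8.96 and 8.85 with folate and 8.95, 8.78 and 8.97 with 004, at the 72.7th percentile of all genes, and its other probe sets averaged 6.66 and 5.48. The 6 values spanned less than 0.2 log2 units and lay just above the reference of 8.45. Of 16 genes of the ERBB2 neighbourhood on chromosome 17, 7 exceeded the reference, among them MIEN1 (10.34 ± 0.32) and the adaptor GRB7 (8.99 ± 0.27), while STARD3 (7.51 ± 0.09) and PGAP3 (8.31 ± 0.09) did not. AXL, another receptor tyrosine kinase, averaged 7.51 ± 0.46. A modest ERBB2 signal goes against what SKOV3 is known for, and the identity of the cells was not tested.

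Of 19 receptor tyrosine kinases, 8 exceeded the reference. The hepatocyte growth factor receptor MET was the brightest, at 11.84, 11.68 and 11.76 with folate and 10.99, 11.66 and 11.69 with 004. FGFR1 averaged 10.08 ± 0.24, FGFR2 10.05 ± 0.20, MST1R 9.64 ± 0.29 and EGFR 9.63 ± 0.30. ERBB3 (7.41 ± 0.25), IGF1R (6.43 ± 0.19) and KIT (6.28 ± 0.07) were not above it.

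Among 19 cancer drivers measured, 13 exceeded the reference. The survival gene MCL1 averaged 12.52 ± 0.13, the cell cycle genes CCND1 11.70 ± 0.28 and CCNE1 10.99 ± 0.19, the transcription factor MYC 11.13 ± 0.30 and the cyclin-dependent kinase inhibitor CDKN1A 11.15 ± 0.28. BRCA1 (7.44 ± 0.47) and NF1 (4.57 ± 0.08) were not above it. In folate metabolism, 6 of 9 genes exceeded it: thymidylate synthase TYMS (13.72 ± 0.11) besides FOLR1, the reduced folate carrier SLC19A1 (9.91 ± 0.34), the hydrolase GGH (10.99 ± 0.32), the polyglutamate synthase FPGS (9.56 ± 0.22) and the exporter ABCC1 (9.48 ± 0.26). FOLR2 (7.40 ± 0.18) and FOLR3 (7.49 ± 0.24) were not above it.

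The brightest signals came from the translation machinery. RPL41, a ribosomal protein, was first at 15.43 ± 0.02 (SD, n = 3 folate arrays) and 15.44 ± 0.01 with 004. SFN, which encodes the epithelial protein 14-3-3 sigma, was next at 15.38 ± 0.02 with folate and 15.37 ± 0.02 with 004. Its other probe sets averaged 14.87 and 10.19 over the 6 arrays, so this rank is that of its brightest probe set. The elongation factor EEF1A1 (15.34 ± 0.06), RPL37A (15.34 ± 0.02), TPT1 (15.01 ± 0.03) and RPS16 (15.01 ± 0.03) followed on the folate arrays. The 25 brightest genes by the mean of the 3 folate arrays and 004 replicates 2 and 3 further held the ribosomal proteins RPL10A, RPL7, RPS3, RPS4X, RPS23, RPS15, RPS28, RPS6 and RPL8, the mitochondrially encoded COX1 and ND4, the cytoskeleton genes TMSB10, TUBA1B and ACTB, and GAPDH, HSP90AA1, PPIA and FTL. HUWE1, a ubiquitin ligase, was also among them at 14.76, although its other probe sets read as low as 5.91, so the gene's level is uncertain. Ribosomal probe sets can also read near-identical pseudogene copies.

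Of the 100 brightest genes of the folate extract, 98 were also among the 100 brightest of the 004 extract. The count was 97 for the mean of 004 replicates 2 and 3 and 97 for replicate 1 alone. It was 88 for the folate-free extract, 91 for the 003 extract and 92 for the MORAb003 extract. The 100 held 38 of the 60 ribosomal protein genes considered and 5 of 7 mitochondrially encoded genes. The last of them was EIF3E at 13.83 and the next gene PLS3 at 13.77.

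Many messages of the translation machinery begin with a 5′ terminal oligopyrimidine tract, a C followed by a run of pyrimidines, through which mTOR signalling controls their translation. The windows below run from 10 bases before to 20 bases into the start annotated by RefSeq on GRCh38.p14 and are shown because the tract is frequent in the brightest class. They read 5′ to 3′ on the strand of the gene, and capitals mark a C at the start base with the pyrimidines that follow it; SFN and GAPDH, which have no such start, are shown for contrast.
RPL41: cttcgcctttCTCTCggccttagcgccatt
EEF1A1: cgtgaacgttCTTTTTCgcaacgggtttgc
RPL37A: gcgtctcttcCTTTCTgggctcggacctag
TPT1: ctgagtcggcCTTTTCCgcccgctcccccc
RPS16: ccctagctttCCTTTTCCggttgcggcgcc
RPS3: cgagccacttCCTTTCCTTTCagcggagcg
RPS6: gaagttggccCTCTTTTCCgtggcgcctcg
SFN: caggagagacacagagtccggcattggtcc
GAPDH: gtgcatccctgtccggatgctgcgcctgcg

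On GRCh38.p14 the RPL41 window is chr12:56116623-56116652 on the plus strand, that of EEF1A1 chr6:73521013-73521042 on the minus strand and that of RPL37A chr2:216498834-216498863 on the plus strand. TPT1 is at chr13:45341164-45341193 and RPS16 at chr19:39435930-39435959, both on the minus strand. RPS3 is at chr11:75399508-75399537 on the plus strand and RPS6 at chr9:19380217-19380246 on the minus strand. SFN is at chr1:26863139-26863168 and GAPDH at chr12:6535254-6535283, both on the plus strand. Each window spans the 5′ end of the first exon.

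A start of C followed by at least 4 bases that are C or T was read on the strand of the gene at the annotated start base. A gene with several annotated starts counted if any of them matched. Such a start was found in 32 of the 78 brightest genes with a sequence, or 41.0% (exact binomial 95% interval 30.0 to 52.7%). Among their ribosomal protein genes it was 22 of 33 (66.7%, interval 48.2 to 82.0%) and among the others 10 of 45 (22.2%, interval 11.2 to 37.1%). Over all genes measured with a sequence it was 934 of 15384, or 6.07%. With at least 6 pyrimidines after the C the shares were 30.8% of the brightest genes and 3.33% of all. RPL10A and RPS4X had no match, which says only that the run is not at the annotated base.

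The 004 extract was then set against the folate extract, the comparison that addresses the effect of adding the control antibody. No gene was called: 0 of 14369 genes (0.0%) passed an adjusted p under 0.05 with a fold of at least 1.5 in limma, with all arrays and also without the first 004 array. The smallest limma adjusted p was 0.418 with all arrays and 0.245 without the first 004 array. At an unadjusted p under 0.05, 1276 genes (8.88%) differed with all arrays, 292 (2.03%) higher and 984 (6.85%) lower with 004. Without the first 004 array the count was 481 (3.35%), with 245 (1.71%) higher and 236 (1.64%) lower. After quantile normalization of all arrays the split was 510 higher and 712 lower. The unadjusted count was 339 without folate replicate 1, 621 without folate replicate 2, 687 without folate replicate 3, 4596 without 004 replicate 2 and 5329 without 004 replicate 3. When limma weighted each array by its agreement with its group, the first 004 array received a weight of 0.03 against 0.65 to 3.69 for the other 14, and 12 genes had an adjusted p under 0.05, each with a fold under 1.5.

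The differences themselves were small once the first 004 array was left out. The median over all genes was 0.01 log2 units, with 90% of genes between -0.18 and 0.17. The 95% interval of the difference lay within 1.5-fold either way for 14192 of 14369 genes (98.77%) and within 2-fold for 99.99%. These intervals cover the spread between arrays, not between cultures. With all arrays the median was -0.13, the 5th and 95th percentiles were -0.53 and 0.30, and the 95% interval lay within 1.5-fold for 59.59% of genes. A difference beyond 1.5-fold was found for 489 genes with all arrays, 460 of them lower, and for 1 gene without the first 004 array.

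**Figure D3:**
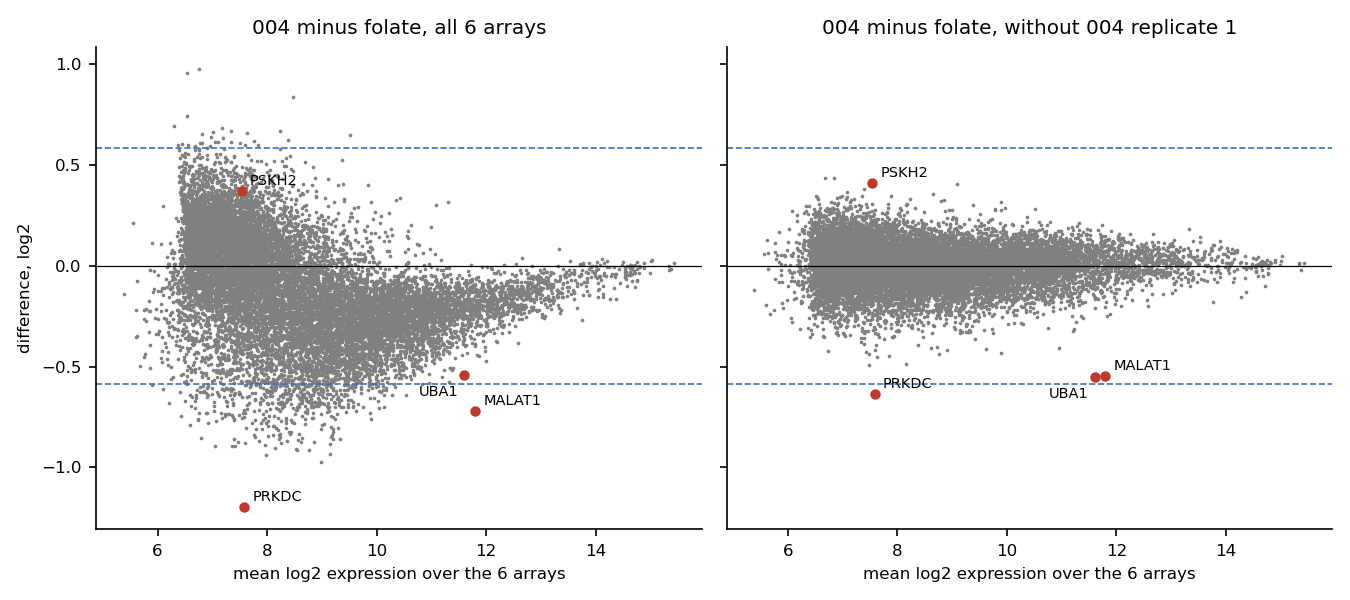
Log2 difference, 004 minus folate, against mean expression for 14369 genes, with all 6 arrays (left) and without 004 replicate 1 (right); dashed lines mark 1.5-fold. On the left 460 genes lie below the lower line, and on the right only PRKDC does.

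Genes for naming had an unadjusted p under 0.05 in both fits, the same sign and no overlap between the 3 folate and the 3 004 arrays. With all arrays, 486 genes (3.38%) were higher and 1018 (7.08%) lower with no overlap. Without the first 004 array these were 1540 (10.7%) and 1276 (8.88%). With fewer arrays in a group, no overlap arises more often by order alone, so the rise does not show more differences. All 3 conditions together left 63 higher (0.438% of genes tested) and 149 lower (1.04%), and the 12 largest each way without the first 004 array are described. For all 24 the limma adjusted p was 0.418 with all arrays. Without the first 004 array it was 0.245 for MALAT1, 0.468 for PSKH2 and 0.9997 for the others.

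MALAT1, a long nuclear RNA associated with splicing bodies, was among those lower. It measured 12.24, 12.12 and 12.11 on the folate arrays and 11.09, 11.60 and 11.62 on the 004 arrays. The first 004 array was the lowest, and the gap between the groups, which the naming rule requires, was widest to it. The difference was -0.72 ± 0.13 (SE, n = 3 arrays each; limma adjusted p = 0.418) with all arrays and -0.55 ± 0.09 (limma adjusted p = 0.245) without the first. With array weights it was -0.53 (limma adjusted p = 0.00389). Of 12 probe sets annotated to MALAT1, 11 were lower with 004 both with and without the first array, 8 of them with no overlap, and their differences without it ran from -0.73 to 0.22. Probe sets of 1 gene read the same extracts and are not independent.

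SCARNA2, a small RNA of Cajal bodies, was another nuclear RNA among those lower, at 7.54, 7.83 and 7.55 with folate and 7.23, 7.23 and 7.19 with 004, a difference of -0.43 ± 0.10 without the first array. The control probe set for the 3′ part of 18S ribosomal RNA moved the same way, at 13.31, 13.01 and 13.08 with folate and 12.44, 12.86 and 12.57 with 004, with no overlap. That for its 5′ part also had no overlap, at 11.52, 11.55 and 11.61 with folate and 10.24, 11.33 and 11.05 with 004, and that for its middle part overlapped. The part of ribosomal RNA signal in the MALAT1 and SCARNA2 values was not tested.

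**Figure D4:**
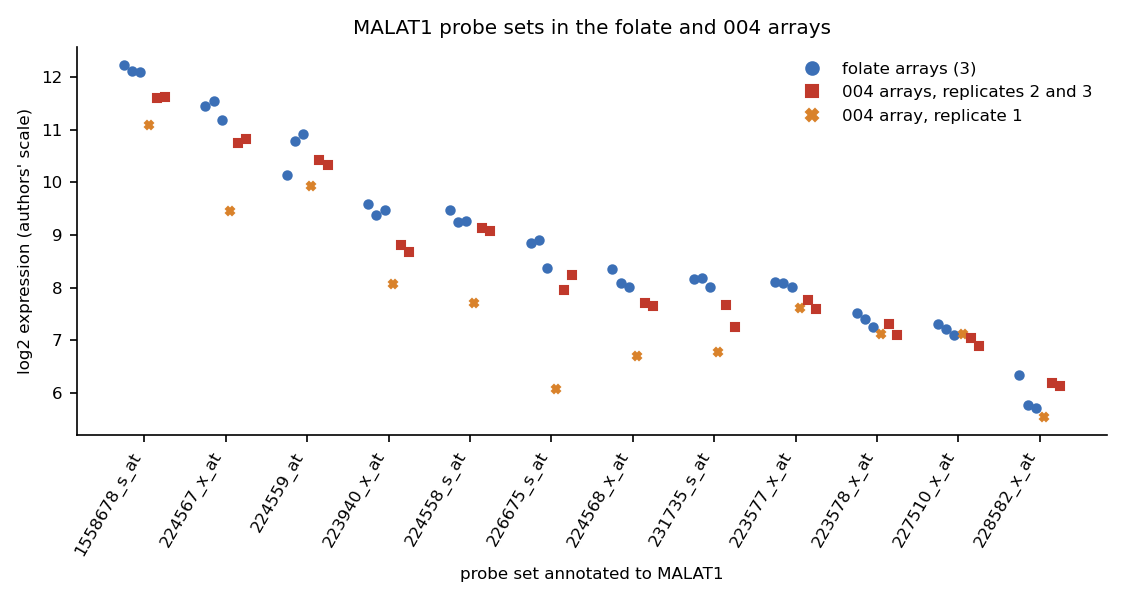
Log2 expression of the 12 probe sets annotated to MALAT1 on the 3 folate and 3 004 arrays, ordered by their folate mean. In 8 of them all 3 004 arrays lie below all 3 folate arrays; the difference in the dim probe set at the right is 0.22 the other way without 004 replicate 1.

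The largest difference belonged to PRKDC, the catalytic subunit of DNA-dependent protein kinase. It measured 8.64, 7.97 and 7.93 with folate and 5.86, 7.68 and 7.40 with 004, a difference of -1.20 ± 0.36 with all arrays and -0.64 ± 0.20 without the first 004 array. The first folate array was the highest and the first 004 array the lowest. Its other probe sets did not follow, with the highest of them at 0.11 without the first 004 array. UBA1, the enzyme that activates ubiquitin, measured 11.80, 11.86 and 11.95 with folate and 11.35, 11.74 and 10.89 with 004. The third 004 array was the lowest there, and a dimmer UBA1 probe set differed by 0.11 in the other direction.

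The other genes that were lower are given with their further probe sets, where they have any. RFWD3, a ubiquitin ligase of the DNA damage response, measured 8.26, 8.27 and 8.34 with folate and 6.58, 7.80 and 7.88 with 004. The ubiquitin ligase UBR3 differed by -0.44 ± 0.19 without the first 004 array and G2E3, a further ligase, by -0.41 ± 0.15. All 5 probe sets of G2E3 were lower with 004, 2 of them with no overlap. The further probe sets of UBR3, NCOA2 and TET2 were mixed. Without the first 004 array, some differed the other way, by up to 0.15, 0.11 and 0.04. In the same fit 1 further probe set of each was lower, by -0.33 for UBR3, -0.07 for NCOA2 and -0.02 for TET2. Of these 3 only that of UBR3 had no overlap. The ETS factor GABPA differed by -0.44 ± 0.14, the DNA demethylation enzyme TET2 by -0.42 ± 0.17, the coactivator NCOA2 by -0.41 ± 0.15, the nuclear pore protein AHCTF1 by -0.42 ± 0.13 and the zinc finger gene ZNF678 by -0.42 ± 0.10. Further probe sets of GABPA and AHCTF1 differed by only -0.03 and -0.13 without the first 004 array. Those of ZNF678 differed by -0.04 to -0.01 there. In all of these further probe sets the folate and 004 arrays overlapped. For TET2 the first folate array stood at 8.33 and the other folate arrays at 7.89 and 7.88. The TET2 values on the 004 arrays were 6.23, 7.46 and 7.77.

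The genes that were higher with 004 had all values between 6.14 and 8.24, inside the range of the other-lineage genes, and the means of PRKDC (7.58), RFWD3 (7.85), TET2 (7.59), GABPA (7.48), SCARNA2 (7.43) and ZNF678 (6.74) among the lower genes lay there too. PSKH2, a protein kinase gene, measured 7.32, 7.39 and 7.35 with folate and 7.64, 7.77 and 7.76 with 004. Its difference was 0.37 ± 0.09 with all arrays, 0.41 ± 0.08 without the first 004 array and 0.41 with array weights (limma adjusted p = 0.0086). RSPO1, which encodes a secreted enhancer of Wnt signalling, measured 7.02, 6.98 and 6.70 with folate and 7.28, 7.33 and 7.20 with 004. The calcium pump ATP2B3, the forkhead factor FOXO4, the peptidase ACE and the potassium channel KCNB2 were higher by 0.35, 0.34, 0.34 and 0.32 without the first 004 array. Further probe sets of KCNB2, ACE and ATP2B3 read down to -0.13, -0.02 and -0.03 in the same fit, and FOXO4 has no other. JPH3, C22orf23, MARCHF3, WIPF1, IRAG2 and TBC1D21 were higher by 0.29 to 0.33 without the first 004 array. Further probe sets of JPH3 read -0.13 to 0.09 in that fit, those of IRAG2 -0.12 to 0.06 and those of WIPF1 -0.03 to 0.13. The further probe set of MARCHF3 read -0.005, and C22orf23 and TBC1D21 have no other.

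**Figure D5:**
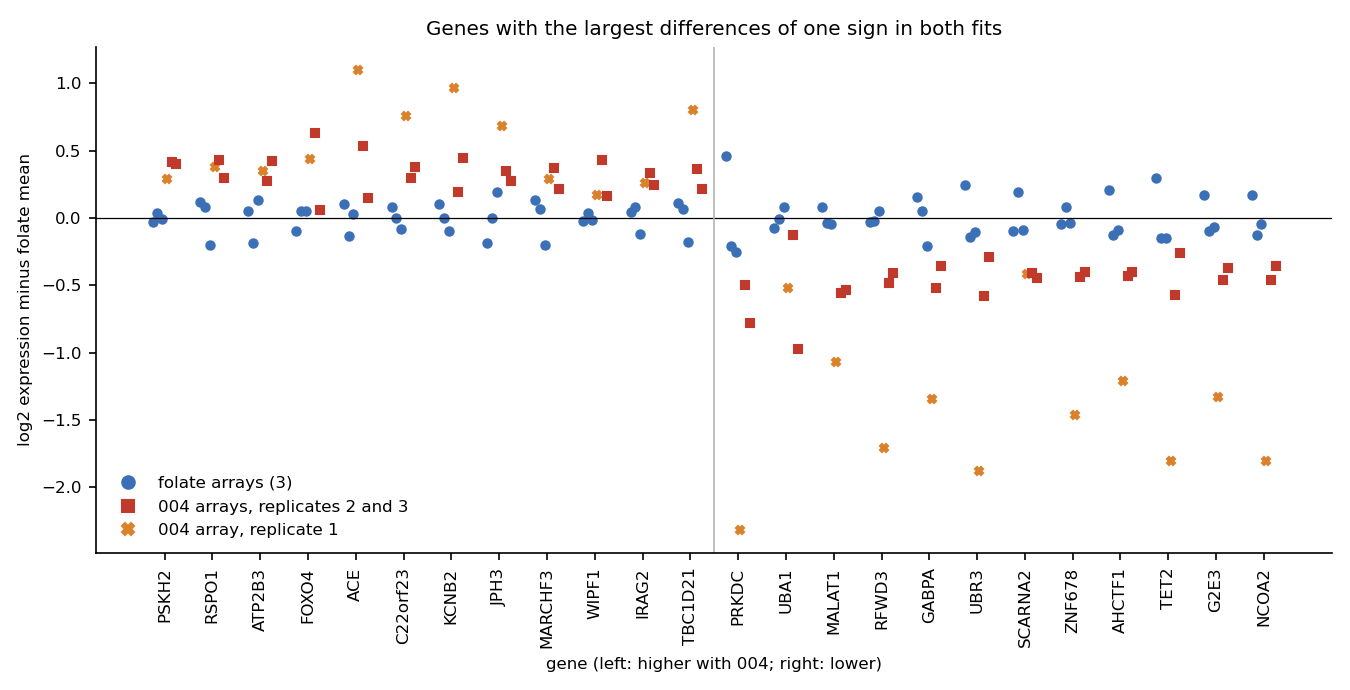
Log2 expression minus the folate mean for the 12 genes higher (left) and 12 lower (right) with 004, on each array. The arrays of the 2 groups do not overlap for any gene, as the naming rule requires; 004 replicate 1 lies lowest for each lower gene except UBA1 and SCARNA2, with PRKDC at 5.86 against a folate mean of 8.18.

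Gene groups were then followed by 26 lists, with 0 called members in each. Without the first 004 array the list medians lay between -0.08 (receptor tyrosine kinases) and 0.05 (ovarian carcinoma and Müllerian lineage), beside 0.01 over all genes tested. With all arrays they lay between -0.31 (cholesterol and fatty acid synthesis) and 0.14 (other-lineage reference), beside -0.13 over all genes tested.

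Lists of signalling and immune responses were examined next. In the list of immediate early and ERK target genes, 30 were tested, 2 were lower at an unadjusted p under 0.05 without the first 004 array and 0 were higher, beside 1.64% lower and 1.71% higher over all genes. With all arrays 7 were lower and 1 higher, beside 6.85% and 2.03% over all genes. These shares apply to each list that follows. The ERK feedback inhibitor SPRY4 measured 9.57, 9.50 and 9.44 with folate and 8.67, 9.32 and 9.04 with 004 (difference without the first 004 array -0.33 ± 0.10, limma adjusted p = 0.9997). The immediate early factor KLF6 measured 10.53, 10.52 and 10.52 with folate and 9.43, 10.29 and 10.34 with 004. For both genes all 004 values lay under all folate values. Of the 30 genes, 8 were lower and 1 higher with no overlap with all arrays, beside 7.08% and 3.38% of all genes. Without the first 004 array 8 were lower and 1 higher, beside 8.88% and 10.7%. No test was run on these counts. The list median was -0.03.

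Of 15 NF-kB and cytokine genes and 16 interferon response genes tested, 0 passed an unadjusted p under 0.05 in either direction without the first 004 array. With all arrays 2 interferon genes were lower, and 0 genes of the other list passed. The medians without the first 004 array were -0.01 and 0.02. The largest interferon difference in that fit was -0.19, for IFIT1, whose product binds foreign RNA; it was -0.49 with all arrays. The cytokine gene IL1B differed by 0.10 there and by 0.43 with all arrays, where the first 004 array read 8.96. The 9 genes of Fc receptors and antibody handling that were tested gave 0 in either direction, and their median was 0.04; with all arrays 1 was higher and 2 lower.

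In the cell cycle, 2 of 30 genes of G2/M and mitosis were higher and 0 lower at an unadjusted p under 0.05 without the first 004 array, and 0 of 28 genes of G1/S and DNA replication passed in either direction. The phosphatase gene CDC25C measured 7.95, 7.77 and 7.73 with folate and 7.30, 8.12 and 8.08 with 004, so that its first 004 array lay below the folate arrays and its repeats above them. The mitotic ubiquitin-conjugating enzyme gene UBE2C had the same order, at 11.64, 11.88 and 11.67 with folate and 11.33, 11.90 and 11.97 with 004. With all arrays the differences were 0.02 for CDC25C and 0.004 for UBE2C, against 0.29 and 0.20 without the first, and 3 G2/M and 1 G1/S genes were lower. The medians of the lists without it were 0.02 and 0.02.

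In metabolism, 2 of 23 genes of cholesterol and fatty acid synthesis were lower and 0 higher without the first 004 array, and 4 were lower and 0 higher with all arrays. The desaturase gene SCD measured 10.97, 10.95 and 10.87 with folate and 9.82, 10.70 and 10.68 with 004, with no overlap. The sterol carrier gene STARD4 measured 9.06, 9.17 and 8.90 with folate and 7.84, 8.83 and 8.77 with 004, also with no overlap. Of the 23 genes, 6 were lower and 1 higher with no overlap with all arrays, beside 7.08% and 3.38% of all genes. Without the first 004 array 6 were lower and 2 higher, beside 8.88% and 10.7%. The list median was -0.03 without the first 004 array. Of 28 genes of hypoxia and glycolysis, EGLN3, an oxygen-sensing hydroxylase gene, differed by 0.27 without the first 004 array but by 0.08 with it, since that array (6.23) lay below every folate array. ADM, which encodes adrenomedullin, differed by -0.21 without it and by -0.22 with it. Of 9 folate genes, FPGS differed by 0.16 without the first 004 array and by -0.03 with it, a change of direction, and ABCC1 by -0.24 and -0.38.

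Among lineage genes, CLDN3 and the desmosomal DSP each differed by -0.31 without the first 004 array (limma adjusted p = 0.9997 for both) and by -0.48 and -0.52 with it. CLDN3 measured 10.93, 11.02 and 10.99 with folate and 10.17, 10.87 and 10.47 with 004, and DSP 11.64, 11.36 and 11.47 with folate and 10.57, 11.20 and 11.15 with 004. KLK6 differed by 0.21 without that array but by 0.07 with it, where that array (7.49) lay below every folate array, and CDH2 by 0.19 both ways. ERBB3 differed by -0.32 without it and -0.37 with it, MDM2 by -0.28 and -0.64, and ARID1B by 0.21 and 0.14. Over these lists the members past an unadjusted p without the first 004 array were 1 higher and 1 lower of 34 ovarian and Müllerian genes, 1 and 1 of 20 keratin and junction genes, 0 and 1 of 16 receptor tyrosine kinases and 1 and 1 of 17 drivers. With all arrays they were 1 and 1, 0 and 2, 0 and 4, and 0 and 2.

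The lists of unfolded protein response, amino acid response, heat shock, metallothionein and ribosomal protein genes gave 0 members past an unadjusted p without the first 004 array. With all arrays 1, 3, 1, 0 and 0 of them were lower and 0 higher. The medians without the first 004 array were between -0.002 and 0.025. Of 7 mitochondrially encoded genes, ND2 differed by -0.18 without the first 004 array and by -0.27 with it, at 13.89, 13.95 and 13.83 with folate and 13.44, 13.71 and 13.72 with 004. Of 14 p53 targets, MDM2 alone passed the unadjusted p without the first 004 array, and 2 were lower with all arrays.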

How the data were processed

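Total RNA extracted with Trizol was converted to biotinylated cRNA, per the labels' protocols. The authors deposited log2 values for 54675 probe sets; their summary and normalization method is not given in the sources used here, and nothing further was normalized. Tests left out 62 control probe sets. Of the rest, 41091 carried 1 symbol, 1801 several and 11721 none; 41037 were updated through Entrez identifiers. A gene took its probe set of highest mean over the 15 arrays, and entered the tests where any extract's mean was 6.60 (the median of all values) or more. limma 3.58.1 in R 4.3.3 fitted 5 group means, with Benjamini-Hochberg adjustment; the fit was tested on simulated data. Genes were named by the rules stated beside them; in a list, up to 4 members of largest difference without 004 replicate 1. The members and lists were chosen with earlier results of these data known. Start sequences are RefSeq's (GRCh38.p14). Some genes of the lists are not analysed here.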

Additional observations from a re-analysis of the deposited data

How the results depend on the processing

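The count of 0 called genes was the same under all 32 alternatives. The count at an unadjusted p under 0.05 (1276) was 848 with a stricter filter on dim genes, 56 with only the 6 arrays in the fit and 2126 with array weights, and ran from 339 to 5329 when 1 array was left out. Without 004 replicate 1, alternatives added after seeing the data gave 513 with quantile normalization, 416 with the mean of all probe sets, 470 with a replicate block and 609 with only the 5 arrays. Fewer residual degrees of freedom are part of the fits on 6 and 5 arrays; the cause of the other changes was not tested. The replicate block gave 1286 with all arrays; same-numbered folate and 004 arrays deviated with correlations of -0.55, -0.16 and -0.48, so they do not deviate together, although 004 replicate 1 weighs on all of these and the number carries the array day. With the arrays of the first array day alone the count was 1829, and with array day as a block 1285. Genes without overlap numbered 1504, and 2096 to 3654 when 1 array was left out. Fewer arrays make no overlap more frequent by order alone, so these counts cannot be compared directly. Quantile normalization moved the median difference of all genes from -0.13 to 0.00. The difference of FOLR1 (-0.02) changed sign to 0.14 without 004 replicate 1, 0.03 without folate replicate 2, 0.066 with quantile normalization and 0.086 with array weights, and to 0.12, 0.16, 0.11 and 0.14 under the 4 added alternatives above; leaving out 1 array gave -0.148 to 0.14. The naming rule fixes the sign of the 24 named genes when 1 array is left out; 4 of them passed an adjusted p under 0.05 with array weights. With the median of all probe sets as the reference, 32 of 37 ovarian and Müllerian genes lay above it instead of 16. Lists of other cells and tumour types moved as well. Above it were 10 of 13 clear cell, mucinous and intestinal genes instead of 0 and 11 of 19 mesenchymal genes instead of 2. So were 8 of 14 endothelial and leukocyte genes and 5 of 8 mesothelial genes, instead of 1 each. The statement that few such markers were above background therefore depends on the reference. The number of arrays limits the precision, and 1 culture per condition means that no difference can be told apart from one between cultures.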

Other observations

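MALAT1 also varied between the other extracts. Its 3 arrays averaged 12.82 ± 0.10 (SD) in folate-free medium, 12.21 ± 0.09 with the 003 antibody and 11.59 ± 0.12 with MORAb003, beside 12.16 ± 0.07 with folate alone and 11.43 ± 0.30 with 004. The MORAb003 arrays, at 11.48 to 11.71, overlapped the 004 arrays, at 11.09 to 11.62. ERBB2 averaged 9.23 ± 0.05 in folate-free medium, 9.18 ± 0.10 with 003 and 8.99 ± 0.08 with MORAb003, so its highest array in the study read 9.29. PAX8 averaged between 12.72 and 12.96 in all 5 extracts. The guidance gene SEMA3C, chosen after its values were seen, measured 9.73 to 9.81 on the folate arrays and 7.82, 9.44 and 9.44 on the 004 arrays, where the first array again read lowest.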
